A study of Mus musculus with 9 samples.

Results

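The melanocyte pigment genes are 10 genes that build, load or control the melanosome, the organelle in which melanin is made. They were taken by gene symbol from a table of 49672 rows, and all 10 were found. They were measured in the epidermis of newborn (postnatal day 0, P0) Sox2-GFP reporter mice, the only strain and age in the study. Cells were sorted by flow cytometry into GFP-positive Merkel cells, which sense touch, and GFP-negative basal keratinocytes that carried both SCA1 and CD49F, and total RNA was sequenced from 9 libraries. There were 3 Merkel libraries and 6 basal libraries. The titles give each of the sample numbers 1 to 3 one Merkel library and a pair of basal libraries, called here the second basal and the first basal library. All 3 groups carry the reporter. The labels give no treatment, coat colour or further genetic background, and do not state what sets the second basal libraries apart from the first and what a sample number stands for. The spread that the p-values rest on is thus that between libraries, and may be partly technical.

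Melanocytes arise from the neural crest and enter the epidermis and its hair follicles before birth. They convert tyrosine to melanin inside melanosomes and pass these to neighbouring keratinocytes. Mitf is the transcription factor that directs the lineage, and it is known to bind the M-box, a DNA motif in promoters of pigment genes. Neither Merkel cells nor basal keratinocytes are known to make melanin themselves.

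The promoters below are shown because the genes that moved together include known targets of Mitf. RefSeq windows on build GRCm38.p6 were at hand for 6 of the 10 genes (Slc24a5, Tyrp1, Mitf, Oca2, Tyr and Dct), and the 250 bases before the transcription start were searched on both strands for the M-box core TCATGTG, which reads CACATGA on the other strand. It was present in 4 of the 6 genes, and in 3.72% of the 27025 genes with such a window. The motif was picked because it is known from promoters of pigment genes, so this count is a description and no test. Capitals mark the match in each sequence, written 5′ to 3′ on the strand of the gene.
Tyr, chr7:87493513-87493762, minus strand: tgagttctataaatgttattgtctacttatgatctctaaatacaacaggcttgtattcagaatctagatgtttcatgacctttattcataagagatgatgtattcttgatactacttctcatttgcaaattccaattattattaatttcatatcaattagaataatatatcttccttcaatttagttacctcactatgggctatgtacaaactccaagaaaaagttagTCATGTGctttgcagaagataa
Tyrp1, chr4:80833963-80834212, plus strand: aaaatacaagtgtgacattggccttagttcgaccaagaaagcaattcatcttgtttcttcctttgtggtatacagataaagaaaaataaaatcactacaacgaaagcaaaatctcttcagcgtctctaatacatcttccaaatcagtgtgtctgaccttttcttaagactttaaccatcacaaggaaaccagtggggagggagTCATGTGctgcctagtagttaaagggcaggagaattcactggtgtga
Dct, chr14:118052247-118052496, minus strand: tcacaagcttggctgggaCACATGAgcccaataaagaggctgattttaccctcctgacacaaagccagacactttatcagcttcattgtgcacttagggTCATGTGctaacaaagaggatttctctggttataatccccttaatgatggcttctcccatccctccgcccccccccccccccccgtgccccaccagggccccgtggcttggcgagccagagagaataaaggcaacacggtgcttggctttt
Slc24a5, chr2:125067877-125068126, plus strand: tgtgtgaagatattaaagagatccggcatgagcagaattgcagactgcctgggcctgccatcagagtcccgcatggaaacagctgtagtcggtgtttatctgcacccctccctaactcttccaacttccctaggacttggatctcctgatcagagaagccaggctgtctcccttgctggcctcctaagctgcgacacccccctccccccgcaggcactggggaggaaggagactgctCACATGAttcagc
The match began 22 bases before the start of Tyr, 47 before that of Tyrp1 and 13 before that of Slc24a5. The window of Dct held 2 matches, beginning 232 and 151 bases before the start. Mitf has several promoters, of which the most downstream is the one used in melanocytes, and the window before that start held the cyclic AMP response element TGACGTCA, beginning 153 bases before the start and shown in capitals.
Mitf, chr6:97991533-97991782, plus strand: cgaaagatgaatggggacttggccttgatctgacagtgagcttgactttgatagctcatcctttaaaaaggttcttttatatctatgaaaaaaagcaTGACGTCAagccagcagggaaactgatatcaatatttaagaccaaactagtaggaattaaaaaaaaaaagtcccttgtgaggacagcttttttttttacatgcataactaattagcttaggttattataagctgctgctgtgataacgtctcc
That element was in 1 of the 6 genes and in 1.77% of all genes with a window, and it overlaps none of the M-box matches. A match describes the letters of a window and shows no binding.

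The 10 genes were lowest in first basal libraries, and their levels in Merkel and second basal libraries lay much closer to each other. Their summed level was 163 to 229 TPM in Merkel libraries, 114 to 165 TPM in second basal libraries and 16.9 to 37.2 TPM in first basal libraries. TPM is a transcript abundance corrected for transcript length and scaled so that each library has one common total. All Merkel libraries lay above all first basal libraries for 10 of 10 genes, where 15.8% of the 14386 genes tested did so. All second basal libraries lay above all first basal libraries for 9 of 10, where 17.3% of tested genes did so. Merkel libraries lay above all second basal libraries for 4 of 10 (Tyr, Tyrp1, Pmel and Oca2), where 14.6% did so, and the other 6 overlapped. Oca2 and Gpr143 were too low to be tested, so they are among the 10 but not among the 14386 genes.

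**Figure D1:**
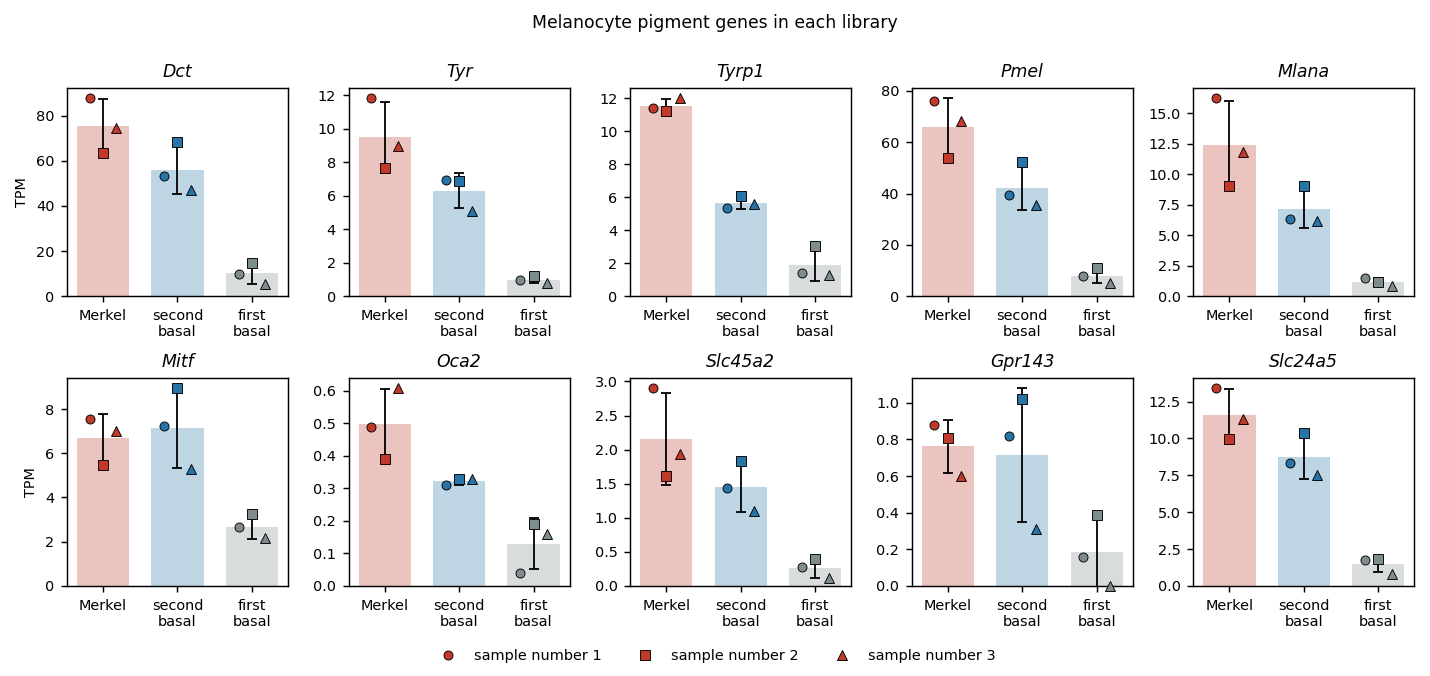
Level in TPM of each of the 10 pigment genes in Merkel, second basal and first basal libraries. Points are libraries (circle, square and triangle for sample numbers 1, 2 and 3), bars are means and lines are 1 SD (n = 3); for 10 of 10 genes the first basal libraries lie under all Merkel libraries.

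Tyr (ENSMUSG00000004651, mm10 chr7:87424771-87493512, minus strand) encodes tyrosinase, the rate-limiting enzyme of melanin synthesis. Its level was 11.8, 7.68 and 8.97 TPM in Merkel libraries, 6.95, 6.87 and 5.09 TPM in second basal libraries and 0.97, 1.19 and 0.79 TPM in first basal libraries, in the order of sample numbers. The 3 groups did not overlap. The means were 9.50 ± 2.13, 6.30 ± 1.05 and 0.983 ± 0.20 TPM in the same order of groups (SD, n = 3 each).

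Tyrp1 (ENSMUSG00000005994, chr4:80834123-80851719, plus strand) encodes tyrosinase-related protein 1, a melanosomal enzyme that stabilises tyrosinase. It was at 11.4, 11.2 and 12.01 TPM in Merkel libraries, 5.34, 6.09 and 5.58 TPM in second basal libraries and 1.41, 3.02 and 1.29 TPM in first basal libraries. Tyrp1 was the gene whose Merkel and second basal libraries lay furthest apart among the 8 genes tested, with means of 11.5 ± 0.42 and 5.67 ± 0.383 TPM (SD, n = 3 each).

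Dct (ENSMUSG00000022129, chr14:118012790-118052244, minus strand) encodes dopachrome tautomerase, an enzyme of eumelanin synthesis that is already on in unpigmented melanoblasts. It was the most abundant of the 10 genes. Its level was 87.8, 63.3 and 74.6 TPM in Merkel libraries, 53.1, 68.3 and 47.0 TPM in second basal libraries and 10.01, 14.7 and 5.54 TPM in first basal libraries. Merkel and second basal libraries overlapped, since the second basal library of number 2 was above the Merkel library of that number.

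Pmel (ENSMUSG00000025359, chr10:128704195-128720238, plus strand) encodes the protein that forms the fibrils on which melanin is laid down. It was at 75.9, 53.7 and 68.3 TPM in Merkel libraries, 39.3, 52.4 and 35.5 TPM in second basal libraries and 7.72, 11.1 and 5.23 TPM in first basal libraries. The groups did not overlap, though the lowest Merkel and the highest second basal library, both of number 2, nearly met. Pmel overlaps Cdk2 and Dgka on the opposite strand, and the strand setting of the quantification is not given in the sources used here, so its level is uncertain to that extent. The log2 fold changes of Cdk2 and Dgka were -0.31 and -0.70 in Merkel against first basal, -0.75 and -0.75 in Merkel against second basal, and 0.44 (limma adjusted p = 0.059) and 0.05 in second against first basal libraries, none of them called.

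Mlana (ENSMUSG00000024806, chr19:29697824-29708634, plus strand) encodes a small melanosomal membrane protein needed for the handling of Pmel. It was at 16.2, 9.05 and 11.8 TPM in Merkel libraries, 6.33, 9.05 and 6.17 TPM in second basal libraries and 1.52, 1.14 and 0.84 TPM in first basal libraries. The Merkel and second basal libraries of number 2 were equal to 2 decimals.

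The transporters of the melanosome membrane followed the same order. Slc24a5 (ENSMUSG00000035183, chr2:125068124-125088677, plus strand), a potassium-dependent sodium-calcium exchanger, was at 13.5, 9.99 and 11.3 TPM in Merkel libraries, 8.32, 10.4 and 7.53 TPM in second basal libraries and 1.74, 1.84 and 0.83 TPM in first basal libraries. It overlaps Myef2 on the opposite strand, with the same uncertainty. The log2 fold change of Myef2 was 0.28 in Merkel against first basal, -0.33 in Merkel against second basal and 0.62 (limma adjusted p = 0.041) in second against first basal libraries, none of them called. Slc45a2 (ENSMUSG00000022243, chr15:11000721-11029233, plus strand), a transporter that sustains melanosomal pH, was at 2.91, 1.62 and 1.94 TPM in Merkel libraries, 1.43, 1.84 and 1.10 TPM in second basal libraries and 0.27, 0.40 and 0.11 TPM in first basal libraries.

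Oca2 and Gpr143 were at 1.02 TPM or less in all 9 libraries and under the filter of 1 TPM in at least 3 libraries, so they were not part of the fit. Oca2 (ENSMUSG00000030450, chr7:56239760-56536518, plus strand), a melanosomal membrane protein that acts on chloride and pH, was at 0.49, 0.39 and 0.61 TPM in Merkel libraries, 0.31, 0.33 and 0.33 TPM in second basal libraries and 0.04, 0.19 and 0.16 TPM in first basal libraries. Its groups did not overlap, and each exact two-sided permutation test gave p = 0.1, the smallest that 3 against 3 libraries allow. Gpr143 (ENSMUSG00000025333, chrX:152781921-152808646, plus strand), a receptor of the melanosome membrane, was at 0.88, 0.81 and 0.60 TPM in Merkel libraries, 0.82, 1.02 and 0.31 TPM in second basal libraries and 0.16, 0.39 and 0 TPM in first basal libraries. For Gpr143 the exact permutation p was 0.1 for Merkel against first basal, 0.9 for Merkel against second basal and 0.2 for second against first basal libraries.

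Mitf (ENSMUSG00000035158, chr6:97807052-98021349, plus strand) had the smallest ratios of mean TPM among the 8 genes over the filter, 2.49 in Merkel over first basal and 2.66 in second over first basal libraries. It was at 7.56, 5.47 and 7.0 TPM in Merkel libraries, 7.22, 8.93 and 5.28 TPM in second basal libraries and 2.67, 3.23 and 2.15 TPM in first basal libraries. Macrophages and other cells transcribe Mitf from other promoters, and a level per gene does not separate the promoters.

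The proportions of the genes to each other varied less for some than for others. Dct made up 37.8 to 38.8% of the summed TPM of the 10 genes in Merkel libraries, 41.1 to 41.4% in second basal libraries and 32.7 to 39.6% in first basal libraries. Pmel made up 32.9 to 34.6%, 30.4 to 31.7% and 29.1 to 30.9% in the same order of groups. Slc24a5 stood at 0.152 to 0.158 of the Dct level in Merkel libraries and 0.152 to 0.160 in second basal libraries. The share of Mitf differed more, with 3.31 to 3.55% in Merkel libraries, 4.64 to 5.59% in second basal libraries and 8.69 to 12.7% in first basal libraries. Tyrp1 stood at 0.130 to 0.177 of the Dct level in Merkel libraries, 0.0892 to 0.119 in second basal libraries and 0.141 to 0.233 in first basal libraries. Mlana stood at 0.143 to 0.185, 0.119 to 0.133 and 0.0775 to 0.152 of the Dct level in the same order of groups. The ratios of the low genes Oca2 and Gpr143 varied more, most of all in first basal libraries, at 0.004 to 0.0289 and 0 to 0.0265. These shares are descriptions and were not tested.

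**Figure D2:**
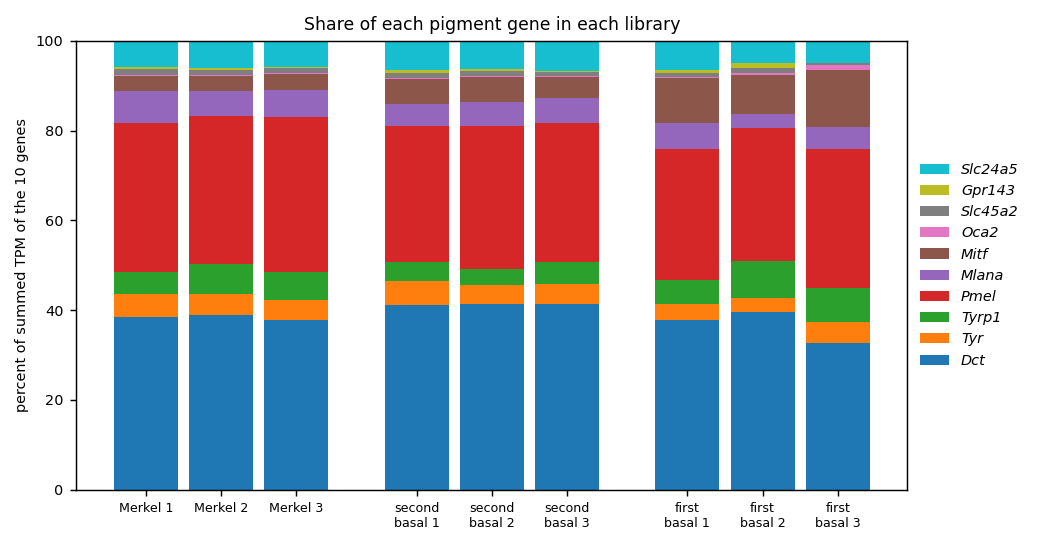
Share of each pigment gene in the summed TPM of the 10 genes, in percent, for each of the 9 libraries (Merkel, second basal and first basal, with sample numbers 1 to 3). The share of Mitf is largest in first basal libraries, at 8.69 to 12.7%.

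Merkel libraries were first set against the first basal libraries. Every one of the 8 tested genes was called higher, where 7.16% of all tested genes were. Calls need an absolute log2 fold change of at least 1 besides an adjusted p under 0.05, from limma on log2(TPM + 1) with Benjamini-Hochberg adjustment over all 14386 genes. The median log2 fold change was 2.38 over the 8 genes and -0.14 over all genes tested. The fold changes were largest for Pmel (2.93 ± 0.24 SE, adjusted p = 1.0e-05) and Dct (2.86 ± 0.28, adjusted p = 3.5e-05). Mlana was at 2.60 ± 0.22, Tyr at 2.39 ± 0.18, Slc24a5 at 2.37 ± 0.19 and Tyrp1 at 2.16 ± 0.20. Slc45a2 (1.31 ± 0.18, adjusted p = 3.5e-04) and Mitf (1.06 ± 0.19, adjusted p = 0.0016) lay closest to the limit of 1, and on this scale low levels understate the fold. The ratio of mean TPM was 10.6 for Mlana, 9.66 for Tyr, 8.25 for Pmel and 7.46 for Dct. Mitf fell short of the limit without Merkel replicate 1 (0.98) and without first basal replicate 3 (0.95).

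Against the second basal libraries 0 of the 8 genes were called by limma, where 6.13% of all tested genes were called higher. That 6.13% also rests on the fold limit. The share of all tested genes under a p limit alone was not counted, so the next counts cannot show an excess. At an unadjusted p under 0.05 there were 4 (Tyr, Tyrp1, Pmel and Mlana), and at an adjusted p under 0.05 there were 3. Of these, Tyrp1 was at 0.91 ± 0.20 SE (adjusted p = 0.0045, 95% interval 0.47 to 1.35), Mlana at 0.69 ± 0.22 (adjusted p = 0.029) and Tyr at 0.51 ± 0.18 (adjusted p = 0.039). Pmel was at 0.63 ± 0.24 (adjusted p = 0.059, interval 0.10 to 1.17) and Dct at 0.42 ± 0.28 (adjusted p = 0.27, interval -0.21 to 1.05). Mitf was at -0.07 ± 0.19 (adjusted p = 0.80, interval -0.50 to 0.36), and its sign turned under 3 scalings. The median was 0.47 over the 8 genes and -0.16 over all genes tested, and median-ratio scaling of the libraries moved the median of all genes to 0.06. Tyrp1 passed the fold limit with that scaling (1.14), with quantile normalization (1.02), without small and mitochondrial RNA (1.04) and with a pseudocount of 0.1 (1.01).

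The difference between Merkel and second basal libraries varied with the sample number. Within number 1 the Merkel library was higher for 10 of 10 genes, within number 3 for 10 of 10, and within number 2 for 4 of 10. No share over all tested genes was counted for such pairs, so these counts cannot be set against other genes. The all-gene median of this comparison was -0.16, and -0.10 once the Merkel library of number 2 was left out. It was -0.18 without that of number 1 and -0.21 without that of number 3. In number 2 the log2 difference was -0.11 for Dct, 0.04 for Pmel, -0.62 for Mitf and 0.78 for Tyrp1. The Merkel library of number 2 also held the largest share of small structural RNA, 51.6% of its TPM, against 37.8 to 43.9% in the other 8 libraries; the part of this in the result was not tested. Within each number, Merkel and second basal libraries were both above the first basal library for 10 of 10 genes. Here too the share over all tested genes was not counted.

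Second and first basal libraries, which carry the same label, were compared with neither as a control. Of the 8 tested genes 7 were called higher in the second basal libraries, where 0.695% of all tested genes, 100 in number, were. All 8 fold changes were above 0 with a limma adjusted p under 0.05. The median log2 fold change was 1.89 over the 8 genes and 0.06 over all genes tested. Dct (2.44 ± 0.28 SE, adjusted p = 5.3e-04) had the 9th highest fold change of 14386 genes, and Pmel (2.30 ± 0.24, adjusted p = 3.9e-04) the 11th. Slc24a5 was at 2.00 ± 0.19, Mlana at 1.91 ± 0.22, Tyr at 1.87 ± 0.18 and Tyrp1 at 1.25 ± 0.20. Mitf was called at 1.13 ± 0.19 (adjusted p = 0.0047) and missed the limit without second basal replicate 2 (0.97). Slc45a2 had an adjusted p of 0.0092 and a log2 fold change of 0.96 ± 0.18, just under the limit, and was called in 5 alternatives: with a pseudocount of 0.1 (2.17), with quantile normalization (1.02), without small and mitochondrial RNA (1.31), without second basal replicate 3 (1.07) and without first basal replicate 2 (1.04).

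**Figure D3:**
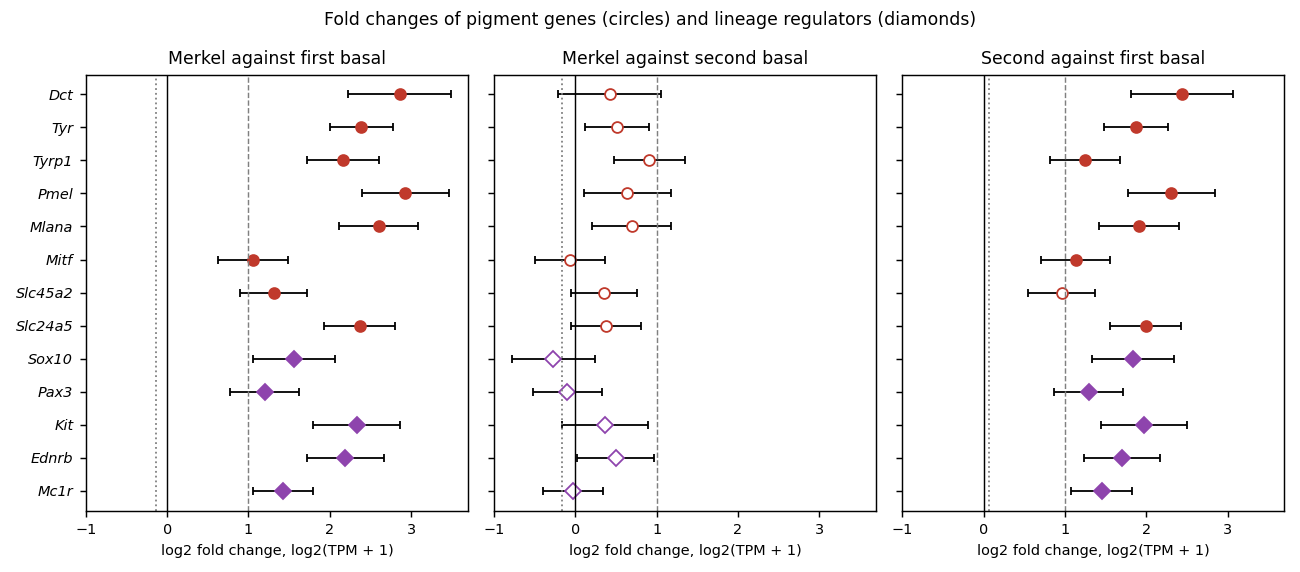
Log2 fold changes on the log2(TPM + 1) scale of 8 pigment genes (circles) and 5 regulators of the melanocyte lineage (diamonds) in the 3 comparisons, with 95% intervals. Filled symbols are called, open ones are not, the dashed line is the limit of 1 and the dotted line the median of all genes tested; 8, 0 and 7 pigment genes are filled from left to right.

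**Figure D4:**
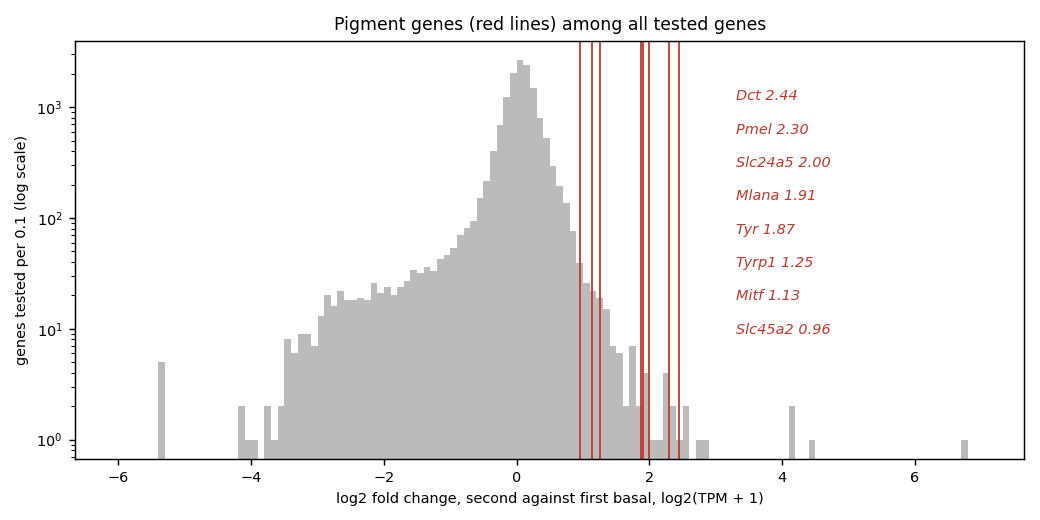
Histogram of the log2 fold change in second against first basal libraries over 14386 tested genes, with a log count axis. Red lines are the 8 tested pigment genes, from 0.96 for Slc45a2 to 2.44 for Dct, on the sparse right side of the histogram.

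With the basal libraries of a number averaged, 6 of 8 genes were called higher in Merkel libraries, where 6.79% of 13822 tested genes were. All 8 fold changes were above 0, and 7 had a limma adjusted p under 0.05. Mlana was at 1.65 and Slc24a5 at 1.37 on the log2 scale. Mitf (0.49, adjusted p = 0.050) and Slc45a2 (0.83, adjusted p = 0.0057) were not called. Slc45a2 was called with a pseudocount of 0.1 (1.61), without small and mitochondrial RNA (1.14) and without second basal replicate 2 (1.00). Averaging sets each Merkel library against the mean of one basal library near its own level and one far under it. All 4 comparisons share libraries, so their values are not independent.

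Regulators of the lineage followed the pigment genes in part. Of 12 listed, 9 were tested, and 5 were called higher in Merkel against first basal and in second against first basal libraries. Over all tested genes, 7.16% and 0.695% were called higher in these comparisons. The 5 were Sox10 and Pax3, transcription factors that act upstream of Mitf, the receptors Kit and Ednrb, and the melanocortin receptor Mc1r. Sox10 was at 6.36, 3.03 and 3.78 TPM in Merkel libraries, 5.54, 5.97 and 4.47 TPM in second basal libraries and 0.82, 1.08 and 0.45 TPM in first basal libraries. Kit was at 12.96, 8.19 and 12.5 TPM in Merkel libraries, 7.84, 10.4 and 7.05 TPM in second basal libraries and 1.51, 2.06 and 0.77 TPM in first basal libraries. In second against first basal libraries the log2 fold change was 1.97 for Kit, 1.84 for Sox10, 1.70 for Ednrb, 1.45 for Mc1r and 1.29 for Pax3. In Merkel against second basal libraries it was 0.50 for Ednrb, 0.36 for Kit, -0.03 for Mc1r, -0.10 for Pax3 and -0.27 for Sox10, none of them called. Median-ratio scaling turned Mc1r to 0.17 and Pax3 to 0.08 there.

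The remaining regulators differed in pattern. Snai2, which basal keratinocytes express as well, fell in Merkel against second basal libraries (-1.08 ± 0.18 SE, adjusted p = 0.0011), a call lost with median-ratio scaling (-0.85). Erbb3, Zeb2 and Tfap2a were not called in any of the 3 comparisons, and Foxd3, Irf4 and Tfec were under the filter. Foxd3 was at 0.97, 0.27 and 0.54 TPM in Merkel libraries, 0.63, 0.50 and 0.53 TPM in second basal libraries and 0.05, 0.10 and 0.11 TPM in first basal libraries. Its second basal libraries all lay above its first basal ones, where 17.3% of tested genes did so. Tfec went the other way, with means of 0.05, 0.093 and 1.02 TPM in the same order of groups. Its Merkel and second basal libraries all lay below its first basal ones. Irf4 had means of 0.19, 0.287 and 0.447 TPM. Its Merkel libraries lay below its first basal ones, and its second basal libraries overlapped with both.

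Of the ligands that act on melanocytes, Edn3, the ligand of Ednrb, stood out in Merkel libraries. It was at 4.42, 2.40 and 2.51 TPM there, against 0.15, 0.03 and 0 TPM in second basal and 0.02, 0 and 0.03 TPM in first basal libraries. Its log2 fold change was 1.92 ± 0.18 SE (adjusted p = 2.9e-05) against second basal and 1.98 ± 0.18 (adjusted p = 2.0e-05) against first basal libraries. Edn3 was the only one of 6 tested ligands called in Merkel against either basal group, and 0 of 6 were called by limma in second against first basal libraries. Over all tested genes, 7.16% were called higher in Merkel against first basal and 6.13% in Merkel against second basal libraries. Kitl, the ligand of Kit, was at 10.7, 6.38 and 7.98 TPM in Merkel libraries, 22.1, 12.1 and 17.4 TPM in second basal libraries and 15.1, 7.71 and 10.9 TPM in first basal libraries. The fold change of Kitl against second basal libraries was -0.95 ± 0.27 (adjusted p = 0.018), under the limit in size. Bmp4 was also under the limit, at 0.98 ± 0.23 (limma adjusted p = 0.0064) against second and 0.87 ± 0.23 (adjusted p = 0.011) against first basal libraries. Its Merkel libraries, at 11.8, 6.27 and 9.36 TPM, lay above all libraries of both basal groups.

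Other genes of pigment cells gave a mixed picture. Of 9 tested of 12 listed, Gpnmb, Mcoln3 and Trpm1 were called higher in second against first basal libraries (1.78, 2.22 and 1.11). The median over the 9 was 0.09 there. Gpnmb (1.84) and Mcoln3 (2.27) were also called higher in Merkel against first basal libraries, and 0 of 9 were called in Merkel against second basal libraries. Tspan10 lay under the limit, at 0.79 ± 0.14 SE (limma adjusted p = 0.0064) in second and 0.99 ± 0.14 in Merkel against first basal libraries. Its ratios of mean TPM were 8.11 and 10.5. Mlph was under the filter. Its second basal libraries (0.62, 1.13 and 0.75 TPM) lay above its first basal ones (0.28, 0.10 and 0.09 TPM). Trpm1 had its highest level in second basal libraries, at 10.98, 8.24 and 10.9 TPM, against 5.97, 6.18 and 6.79 TPM in Merkel libraries and 4.61, 3.89 and 3.81 TPM in first basal libraries. The 26 genes of the general machinery of melanosome and lysosome biogenesis, which most cells use, showed no common shift: 2 were higher and 3 lower in Merkel against first basal, 1 higher and 2 lower in Merkel against second basal, and 0 were called in second against first basal libraries. Over all tested genes, 7.16% and 6.13% were called higher and 7.06% and 5% lower in the comparisons of Merkel with first and second basal libraries. In second against first basal libraries 0.695% were called higher. The machinery genes called were the AP-3 subunit Ap3s1 (1.02) and the protease Bace2 (1.57), higher, and the motor Myo5a (-1.53), the channel Tpcn2 (-1.30) and Hps3 (-1.03), lower, in Merkel against first basal libraries. Hps3 was not called with median-ratio scaling (-0.86), nor Ap3s1 without first basal replicate 3 (0.88).

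The genes whose level was most like the mean profile of the 8 pigment genes, by Pearson r over the 9 libraries among 12699 protein-coding genes, were Kit (0.995), Ptgds (0.992), Ednrb (0.991), Cdc42ep4 (0.991) and Lama4 (0.988). The r of the 8 pigment genes with that profile, which they make up, was 0.949 for Mitf to 0.999 for Pmel. The points fall into the 3 groups of libraries, with the first basal ones low, and r describes that order. Ptgds, a prostaglandin D synthase, was at 39.9, 22.0 and 23.5 TPM in Merkel libraries, 20.7, 25.4 and 13.3 TPM in second basal libraries and 3.11, 4.74 and 1.74 TPM in first basal libraries. Its log2 fold change was 2.33 ± 0.32 SE in second against first basal libraries (adjusted p = 0.0015). Cdc42ep4 and Lama4 had the like profile at a smaller size, with first basal levels of 18.2 to 20.1 TPM and 0.57 to 0.78 TPM, against 26.6 to 30.5 TPM and 1.42 to 1.63 TPM in second basal libraries.

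Markers of other cells also differed between the groups. The summed level of 10 Merkel cell markers was 1010 to 1330 TPM in Merkel libraries, 3.97 to 5.86 TPM in second basal and 2.68 to 5.43 TPM in first basal libraries, and that of 10 basal keratinocyte markers was 6159 to 7164, 15229 to 17303 and 19041 to 20089 TPM in the same order. Both sums set Merkel apart from basal libraries, as the labels do. In Merkel against second basal libraries 6 of 10 basal markers were called lower, where 5% of tested genes were. Ly6a, the gene of SCA1, was not among them. It was at 6.78, 13.6 and 21.8 TPM in Merkel, 17.1, 22.3 and 24.0 TPM in second basal and 26.3, 45.4 and 44.7 TPM in first basal libraries. Most Langerhans cell and macrophage markers ran against the pigment genes. The 8 markers summed to 57.4 to 188 TPM in Merkel libraries, 50.6 to 337 TPM in second basal libraries and 792 to 1401 TPM in first basal libraries. Cd74 was the most abundant of them. In second against first basal libraries 6 of 8 were called lower, where 3.64% of tested genes were. The 2 not called were H2-Aa (limma adjusted p = 0.052) and the Langerhans cell marker Cd207 (adjusted p = 0.53). Cd207 was at 0.13, 4.59 and 0.33 TPM in second basal and 0.74, 9.26 and 2.92 TPM in first basal libraries. EGFP, the reporter, was higher in second basal libraries (17.1, 13.4 and 18.3 TPM) than in first basal libraries (3.72, 1.73 and 2.96 TPM), at 222, 178 and 247 TPM in Merkel libraries. Fibroblast and dermal papilla markers (8 of 9 tested higher in Merkel against either basal group) were called for 1 gene, Col1a2, in second against first basal libraries. Of 7 tested Schwann cell and neural crest genes 4 were higher in Merkel against first basal, 2 in Merkel against second basal, and 1, Sox10, in second against first basal libraries; hair matrix genes had 1 higher, 1 lower and 0 called of 8 tested in these comparisons. T cells had 1 tested marker, not called, and endothelium 1, higher in Merkel against second basal libraries. Over all tested genes, 7.16% were called higher in Merkel against first basal, 6.13% in Merkel against second basal and 0.695% in second against first basal libraries. Fewer cells of a type and less RNA per cell cannot be told apart in these bulk libraries, and the part of these markers in the pigment gene differences was not tested.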

How the data were processed

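Total RNA libraries were made with a stranded kit and sequenced as read pairs, per the labels' protocols. The submitters' processing notes name Trimmomatic, STAR, RSEM and the build mm10. Versions and the strand setting are not given in these sources. The authors deposited TPM per gene. TPM keeps no read depth, so no counting interval is given, and low values are the least precise. Symbols and coordinates come from GENCODE M21 (GRCm38, the same build as mm10); 49326 of 49671 Ensembl identifiers matched a symbol.

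The members, gene lists and tests were chosen with earlier results of these data known. Values were taken as log2(TPM + 1). Genes at 1 TPM or more in at least 3 libraries were tested with two-sided limma (3.58.1, R 4.3.3; variance trend) in one fit of the 3 groups; in a further fit the basal values of a number were averaged first (at least 3 of 6 values at 1 TPM). A gene low in first basal libraries passes through the groups where it is high, so counts over tested members are not counts over lists. Deviations from the group means correlated at 0.14 to 0.53 in all 9 pairs of libraries with the same number (-0.51 to 0.18 for different numbers). Libraries of a number were thus alike. Centring within each group by itself lowers r between different numbers where r for the same number is positive. The main fits leave this pairing out, and the SE and p-values in the Results come from them. The fit with a block is an alternative.

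Named genes are the 10 members, the lineage regulators, the called genes of other lists with the 4 smallest adjusted p in each direction in a comparison with each list's most abundant gene, of which a selection is printed, and the 5 genes most like the members. EGFP, Cdk2, Dgka and Myef2 were chosen after their values were seen. Some genes are not reported here.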

Additional observations from a re-analysis of the deposited data

How the results depend on the processing

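Counts of called genes moved by more than 1.5 times with a filter at 5 TPM, which tests fewer genes: 935 against 1667 for Merkel against averaged basal, 1167 against 2045 for Merkel against first basal, 992 against 1602 for Merkel against second basal and 345 against 623 for second against first basal libraries. A pseudocount of 0.1 gave 2476 for Merkel against second basal libraries; the cause was not tested. In that comparison 1 pigment gene, Tyrp1, in place of 0 was called with a pseudocount of 0.1, median-ratio scaling, quantile normalization, or small and mitochondrial RNA removed. Median-ratio scaling moved the split of higher and lower calls to 1121 and 415 from 938 and 729 (averaged), 1218 and 791 from 1030 and 1015 (first basal) and 1090 and 346 from 882 and 720 (second basal); a pseudocount of 0.1 gave 1194 and 1254, 1291 and 1666, and 1113 and 1363 in the same order, and for second against first basal libraries 226 and 588 in place of 100 and 523. The sign turned, with no call either way, in Merkel against second basal libraries for Mitf (0.15 with median-ratio scaling, 0.02 with quantile normalization, 0.01 with small and mitochondrial RNA removed, 0.05 without Merkel replicate 2, 0.09 without second basal replicate 2, range -0.25 to 0.09 over left-out libraries), Pax3 (0.08 with median-ratio scaling, 0.04 and 0.00 without those replicates, range -0.28 to 0.04) and Mc1r (0.17 with median-ratio scaling, 0.04 with small and mitochondrial RNA removed, 0.10 and 0.09 without those replicates, range -0.13 to 0.10). Leaving out 1 library gave 6 to 7 pigment genes called higher for averaged basal, 7 to 8 for first basal, 0 for second basal and 6 to 8 for second against first basal libraries. With the sample number as a replicate block, 1719, 2071, 1623 and 650 genes were called in the 4 comparisons, and no call of a pigment gene changed. The number of reads behind low values, such as those of Oca2 and Gpr143, is unknown.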

Other observations

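Among the 0.695% of tested genes called higher in second against first basal libraries were 5 that are known from the early hair follicle. They were picked after their values were seen. Of the 8 tested hair matrix genes 0 were called by limma and 1, Shh, had an unadjusted p under 0.05. Shh was at 0.87 (adjusted p = 0.14), Lef1 at 0.64 (adjusted p = 0.39), Krt35 at -0.12 and Msx2 at -0.02. Foxi3, a transcription factor of skin appendages, was at 23.0, 12.3 and 18.5 TPM in second basal libraries, against 5.76, 3.87 and 4.0 TPM in first basal libraries (log2 fold change 1.75 ± 0.25 SE, limma adjusted p = 0.0019), and was called in all 14 alternatives. Edar, a receptor of the hair placode, was at 17.6, 8.89 and 16.5 TPM, against 4.81, 3.07 and 4.55 TPM (1.54 ± 0.34, adjusted p = 0.019). The hedgehog pathway target Gli1 (1.18, adjusted p = 0.030), Lhx2 (1.11, adjusted p = 0.040) and Sostdc1 (1.06, adjusted p = 0.0015) had smaller fold changes. Of 14 alternatives the call was lost in 3 for Edar, 5 for Gli1, 6 for Lhx2 and 2 for Sostdc1.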
